A study of Homo sapiens with 4 samples.

Results

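Fibulins, SPARC and thrombospondins are secreted glycoproteins that sit in or around the extracellular matrix, and 10 of their genes were followed here: EFEMP1, EFEMP2, FBLN1, FBLN2 and FBLN5 (fibulins), SPARC and SPOCK1 (the SPARC family), and THBS1, THBS2 and THBS3 (thrombospondins). They were selected by gene symbol from 15870 named genes, and the probe set with the highest mean over all arrays was to stand for each gene. Every one of the 10 had 1 named probe set, so no choice between probe sets arose. The genes were proposed with results of the same comparison known, so their differences are given as a description and are not independent evidence for the group.

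The data are log2 array signals of MDA-MB-231 cells, an established human breast carcinoma line with mesenchymal features, on 4 Affymetrix arrays. In 2 arrays the cells carried a short hairpin against DROSHA (shDROSHA), and in 2 they carried the control labelled shNC, which the series' design text describes as mock-transfected. DROSHA is the nuclear ribonuclease that makes the first cut in microRNA maturation, and the study sought genes whose mRNA level depends on it. All cultures grew in Leibovitz's L-15 medium with 10% FBS and antibiotics. All arrays represent a single line, and the labels name 1 hairpin condition without saying how many hairpin sequences it holds or how long the cells had carried it. The titles call the replicates biological but do not say what separates them, so the tests measure the spread between these samples.

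Fibulins are built from calcium-binding epidermal growth factor-like repeats and bind elastic fibre and basement membrane proteins. SPARC binds collagen and calcium and affects how cells attach to their matrix. Thrombospondins are multimeric calcium-binding proteins, and thrombospondin-1 also binds CD47, CD36 and integrins, inhibits angiogenesis and can activate latent TGF-beta. As background on the link to DROSHA, SPARC mRNA is a known target of the miR-29 family, and THBS1 mRNA of the microRNA cluster that yields miR-18a and miR-19. The mature sequences of these microRNAs in RefSeq, with bases 2 to 8 (the seed that pairs with a target) in capitals, show that the miR-29 members share 1 seed and the miR-19 members another. MicroRNA levels and target sites were not measured here.
hsa-miR-29a-3p: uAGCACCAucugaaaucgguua
hsa-miR-29b-3p: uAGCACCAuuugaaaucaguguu
hsa-miR-29c-3p: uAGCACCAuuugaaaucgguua
hsa-miR-18a-5p: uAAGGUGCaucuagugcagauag
hsa-miR-19a-3p: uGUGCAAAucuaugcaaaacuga
hsa-miR-19b-3p: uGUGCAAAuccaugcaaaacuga

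The arrays were alike in scale, with median log2 signals between 7.21 and 7.25, and the targeted mRNA was lower as labelled. DROSHA read 8.71 and 8.74 in shDROSHA and 9.66 and 9.76 in shNC, a 1.98-fold lower level (log2 difference -0.99, SE 0.073, limma adjusted p = 3.89e-06 in the trended fit and 0.0843 in the constant fit, both described next). All 6 mesenchymal markers of the line (VIM, CD44, AXL, ZEB1, MSN and CAV1) lay above the median of all probe sets, at mean signals of 9.52 to 11.96. Of the 5 luminal markers measured, ESR1 (6.15), EPCAM (6.79) and GATA3 (7.08) lay below that median of 7.22, while the keratins KRT18 (11.00) and KRT19 (9.08) lay above it. Whole-array calls came from limma, whose prior variance was allowed to vary with signal (the trended fit), and p-values were adjusted by Benjamini-Hochberg over the 18603 probe sets measured. It called 1192 probe sets (6.41%), 581 higher in shDROSHA (3.12%) and 611 lower (3.28%). After centring each array on its median the split was 747 higher and 448 lower. When the prior variance was held constant instead (the constant fit), 1 probe set passed (0.00538%), and 2774 had an unadjusted p under 0.05.

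The knockdown cells had more mRNA for 1 gene of each family: EFEMP1, SPARC and THBS1. In bulk RNA a change in the share of cells that express a gene and a change in RNA per cell cannot be told apart. Of the 10 genes these 3 rose in the trended fit, 0 fell and 7 were not called, and the background of higher calls was 3.12% of all probe sets. Because the genes were chosen with these results known, nothing is read from that contrast of shares. The median log2 difference of the 10 was 0.14, against 0.001 over all probe sets. In the constant fit 0 of the 10 passed and 4 had an unadjusted p under 0.05, all from limma. The groups' arrays did not overlap for 6 of the 10 genes, 3 with shDROSHA above and 3 below, where 47.8% of all probe sets did not overlap.

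**Figure D1:**
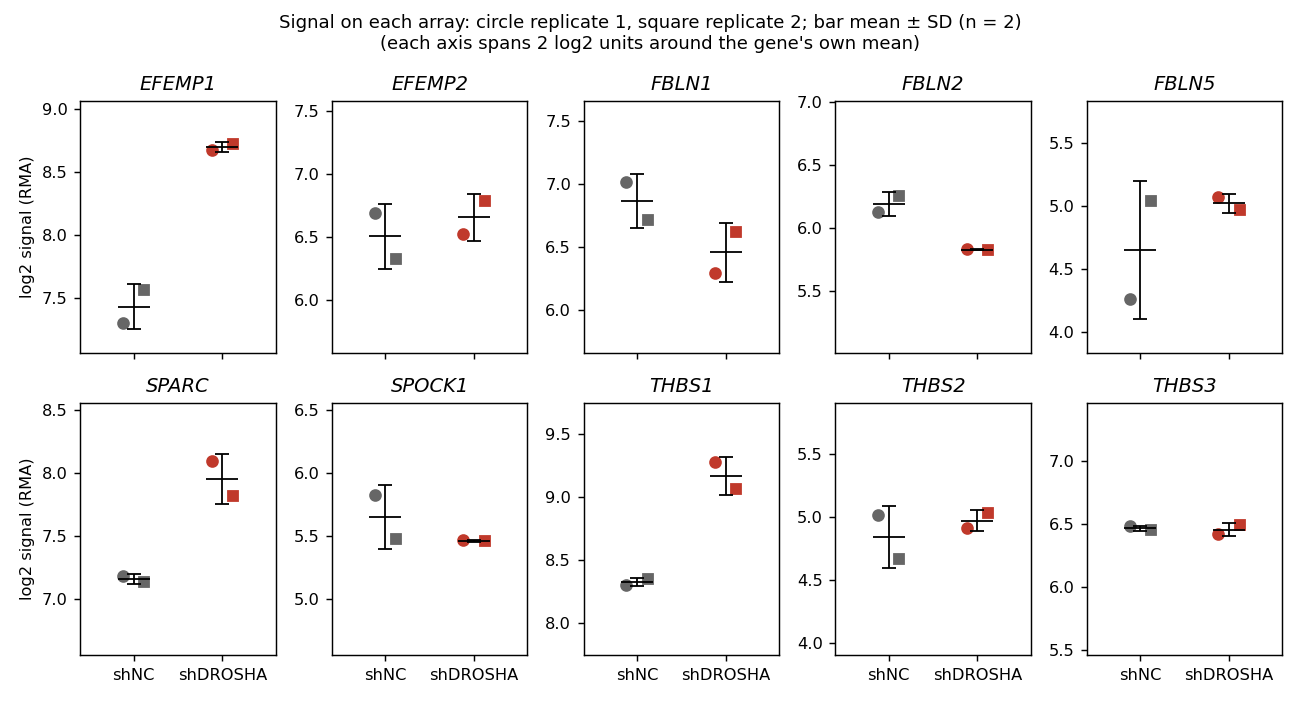
Log2 RMA signal (vertical axis, spanning 2 log2 units in each panel) of the 10 genes on each array, with replicate 1 as a circle, replicate 2 as a square, and bars for the mean ± SD (n = 2 each). EFEMP1, SPARC and THBS1 in shDROSHA (red) stand clear of shNC (grey), by gaps of 1.11, 0.63 and 0.72 between the nearest arrays, whereas EFEMP2, FBLN5, THBS2 and THBS3 overlap.

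Among the fibulins, EFEMP1 rose and the other 4 did not pass. EFEMP1 encodes fibulin-3, a short fibulin of elastic tissues and basement membranes. Its log2 signal was 8.68 and 8.73 with shDROSHA against 7.31 and 7.56 with shNC. Both knockdown arrays lay above both controls, and each of the 4 pairings of a knockdown with a control array differed by 1.11 to 1.42. The means were 8.70 ± 0.038 and 7.43 ± 0.18 (SD, n = 2 each), a 2.41-fold higher level (95% interval 2.05 to 2.82, log2 difference 1.27, SE 0.107, limma adjusted p = 1.16e-05 in the trended fit). The constant fit gave it an adjusted p of 0.0859 with limma.

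EFEMP2, which encodes fibulin-4, a close relative of fibulin-3 needed to assemble elastic fibres, did not share that difference in these arrays. Its signal was 6.53 and 6.79 in shDROSHA and 6.69 and 6.32 in shNC, so the groups overlapped. The log2 difference of 0.15 (SE 0.163, limma adjusted p = 0.70) has a 95% interval of -0.20 to 0.50, which lies below the EFEMP1 interval of 1.04 to 1.50.

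FBLN5 encodes fibulin-5, the third short fibulin, which links elastin to integrins on the cell. It gave 5.07 and 4.96 in shDROSHA and 4.26 and 5.03 in shNC. The control replicates differed by 0.77 and one of them lay between the knockdown arrays. The log2 difference of 0.37 (SE 0.234, limma adjusted p = 0.44) became -0.02 without shNC replicate 1, so it rested on that array.

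The larger fibulins FBLN1 and FBLN2, whose proteins bind fibronectin, laminins and other basement membrane components, were lower without passing. FBLN1 read 6.29 and 6.62 in shDROSHA against 7.01 and 6.71 in shNC. Its groups were separated by 0.09, less than the difference of 0.33 between the knockdown replicates. The log2 difference was -0.41 (SE 0.161, limma adjusted p = 0.17), and it ranged from -0.57 to -0.24 over the arrays left out in turn. FBLN1 passed, as lower, only without shDROSHA replicate 2 (log2 difference -0.57), a fit in which shDROSHA replicate 1 was the only knockdown array. FBLN2 read 5.84 and 5.83 in shDROSHA against 6.13 and 6.26 in shNC. Its arrays were separated by 0.29, and the log2 difference was -0.36 (SE 0.157, limma adjusted p = 0.22). Of the 7 genes that did not pass, FBLN1 and FBLN2 were the 2 with an unadjusted p under 0.05 (0.0237 and 0.0372 in limma).

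In the SPARC family, SPARC rose and SPOCK1 did not pass. SPARC, also called osteonectin, read 8.09 and 7.81 in shDROSHA and 7.18 and 7.13 in shNC. The knockdown arrays lay above the controls by at least 0.63, and they differed from each other by 0.28, more than the control arrays did (0.05). The means were 7.95 ± 0.196 and 7.16 ± 0.037 (SD, n = 2 each), a 1.73-fold higher level (95% interval 1.45 to 2.08, log2 difference 0.79, SE 0.121, limma adjusted p = 0.00137 in the trended fit and 0.167 in the constant fit). SPARC had the highest adjusted p of the 3 that rose, and FBLN1 (0.17) the lowest of those that did not pass.

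SPOCK1 encodes testican-1, a proteoglycan with a SPARC-like calcium-binding domain. It read 5.46 and 5.46 in shDROSHA and 5.83 and 5.47 in shNC. The groups were separated by 0.008 only, and the control replicates differed by 0.35. The log2 difference of -0.19 (SE 0.18, limma adjusted p = 0.64) was -0.01 without shNC replicate 1. The other SPARC relatives measured, SPOCK2 (-0.06), SPOCK3 (-0.06) and SMOC1 (0.01), had overlapping arrays. Of these 3, 0 passed the trended fit, against 6.41% of all probe sets, and 0 passed the constant fit. In limma 0 had an unadjusted p under 0.05.

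Among the thrombospondins, THBS1 rose while THBS2 and THBS3 did not pass. THBS1 read 9.28 and 9.06 in shDROSHA and 8.31 and 8.35 in shNC. Each knockdown array exceeded each control array, by 0.72 to 0.97, and the control arrays lay within 0.04 of each other. The means were 9.17 ± 0.151 and 8.33 ± 0.029 (SD, n = 2 each), a 1.79-fold higher level (95% interval 1.57 to 2.05, log2 difference 0.84, SE 0.089, limma adjusted p = 8.59e-05 in the trended fit and 0.138 in the constant fit). The intervals of the SPARC and THBS1 differences (0.54 to 1.05 and 0.65 to 1.04) cover each other's estimates, so their order is not settled here.

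THBS2, which encodes thrombospondin-2, the nearest relative of thrombospondin-1, was dim and overlapped between groups, at 4.91 and 5.03 in shDROSHA and 5.01 and 4.66 in shNC. The log2 difference of 0.13 (SE 0.194, limma adjusted p = 0.79) has a 95% interval of -0.28 to 0.55. THBS3, which encodes a pentameric thrombospondin of the same subgroup as COMP, read 6.42 and 6.49 in shDROSHA and 6.48 and 6.45 in shNC. Its replicates were close (0.07 apart in shDROSHA and 0.03 in shNC), and its log2 difference of -0.01 (SE 0.143, limma adjusted p = 0.98, 95% interval -0.32 to 0.30) turned to 0.02 with arrays centred on their medians and 0.01 with quantile normalization again.

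**Figure D2:**
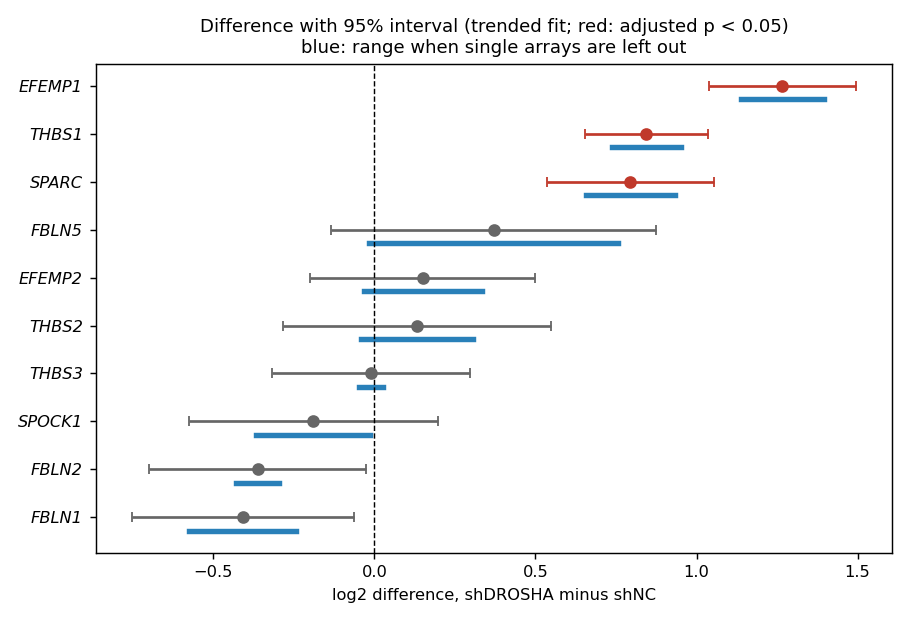
Log2 difference of shDROSHA minus shNC (horizontal axis) for each gene with its 95% interval from the trended fit, in red where adjusted p is below 0.05, and in blue the range when single arrays are left out. EFEMP1 (1.27), THBS1 (0.84) and SPARC (0.79) lie to the right of 0 with each of the 4 arrays left out in turn, and the ranges of EFEMP2, FBLN5, THBS2 and THBS3 cross 0.

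The 3 genes that rose were also the 3 brightest of the 10. Their mean signals over the 4 arrays, 7.55 to 8.75, lay above the median of all probe sets (7.22). The other 7, at 4.83 to 6.66, lay below it, 3 of them below the lower quartile. That level includes the rise itself, and SPARC lay above the median only through its shDROSHA arrays (shNC mean 7.16). Calls depended on level across the array: the trended fit called 11.0% of probe sets at or above the median and 1.86% of those below. A log2 difference of 0.32 to 0.43 would have passed for EFEMP1, SPARC and THBS1, whereas 0.51 to 0.83 was needed for the other 7. A difference of the size of EFEMP1 would thus have passed for any of the 7, at their SEs, and differences under those sizes were not detectable. A dim probe set can also hold background, which compresses its differences.

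**Figure D3:**
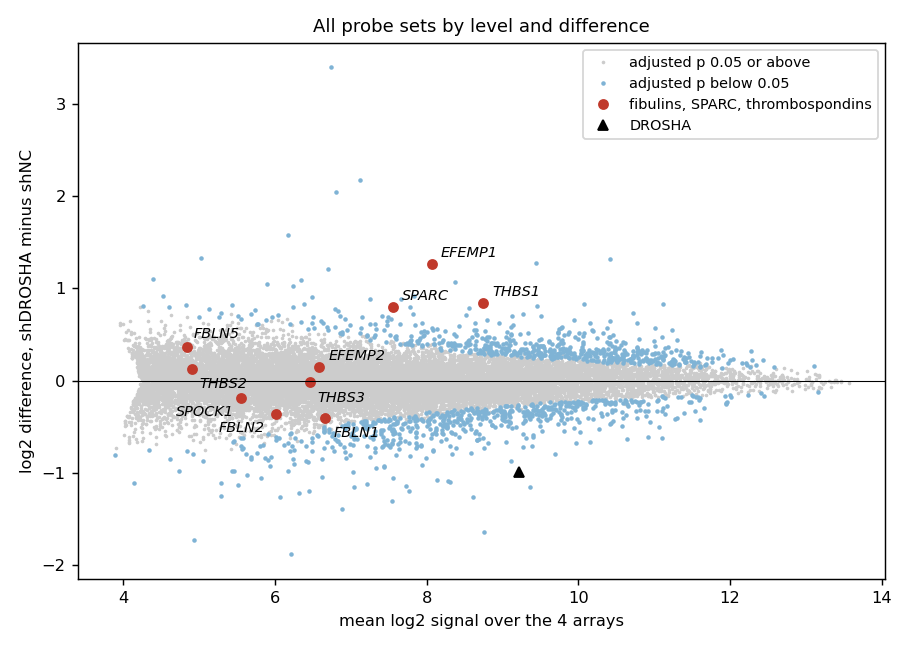
All 18603 probe sets by mean log2 signal over the 4 arrays (horizontal axis) and log2 difference of shDROSHA minus shNC (vertical axis), with those at adjusted p below 0.05 in blue, the 10 genes as red circles and DROSHA as a black triangle. EFEMP1, SPARC and THBS1 stand above the cloud, and the other 7 lie within the wider spread at low signal.

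The start-site regions of the genes were compared, and of the 3 that rose only SPARC and THBS1 had a region to compare. The RefSeq table of GRCh38.p14 held 11 such regions of 300 bases (250 before the start and 50 after) for 8 of the 10 genes, with none used for EFEMP1 and SPOCK1. Of 5 short motifs searched on both strands, CATTCC is the core bound by TEAD factors. It occurred in 3 of the 11 regions, those of SPARC, THBS1 and THBS2, against 14.0% of 35116 regions of all genes. GGGCGG, the core of SP1 sites, occurred in 8 of the 11 regions (45.0% of all regions). These belong to 6 of the 8 genes, and the motif was absent from the regions of SPARC and THBS2. TATAAA occurred in 2 of the 11, of FBLN5 and THBS2 (11.5% of all regions). CAGACA, a SMAD-binding sequence, occurred in 1, of THBS2 (16.9%), and TGANTCA, bound by AP-1, in 0 (7.71%). The regions that hold CATTCC, or its reverse complement GGAATG, are printed 5′ to 3′ on the gene's strand with those letters in capitals. They lie at chr5:151686866-151687165 (minus strand) for SPARC, chr15:39580829-39581128 (plus strand) for THBS1 and chr6:169253797-169254096 (minus strand) for THBS2. SPARC and THBS1, which rose, hold 1 match each, and THBS2, which did not pass, holds 2. Whether any of the motifs has a part in the differences was not tested.
SPARC: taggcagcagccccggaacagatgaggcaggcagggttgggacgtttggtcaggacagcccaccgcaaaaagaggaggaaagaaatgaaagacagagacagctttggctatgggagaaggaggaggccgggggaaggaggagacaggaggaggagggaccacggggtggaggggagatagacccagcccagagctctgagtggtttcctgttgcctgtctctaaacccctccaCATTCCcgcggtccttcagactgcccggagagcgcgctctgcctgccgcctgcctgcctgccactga
THBS1: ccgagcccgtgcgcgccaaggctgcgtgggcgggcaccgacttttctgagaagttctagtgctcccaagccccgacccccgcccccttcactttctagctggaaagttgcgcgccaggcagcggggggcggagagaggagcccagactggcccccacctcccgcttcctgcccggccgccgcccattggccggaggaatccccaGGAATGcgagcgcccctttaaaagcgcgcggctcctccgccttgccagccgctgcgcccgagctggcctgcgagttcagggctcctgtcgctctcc
THBS2: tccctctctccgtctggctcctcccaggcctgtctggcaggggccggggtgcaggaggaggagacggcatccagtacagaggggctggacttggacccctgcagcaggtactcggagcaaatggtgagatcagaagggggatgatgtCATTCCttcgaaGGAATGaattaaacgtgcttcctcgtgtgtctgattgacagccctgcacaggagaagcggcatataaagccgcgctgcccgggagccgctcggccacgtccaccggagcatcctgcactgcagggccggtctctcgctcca

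Of 73 other matrix genes measured in 5 lists of relatives, 3 rose (4.11%) and 7 fell (9.59%) in the trended fit. Over all probe sets 3.12% rose and 3.28% fell. The lists were settled with earlier results of these data known, so nothing is read from these shares. The median log2 difference of the 73 was 0.00032. Of 19 measured fibulin relatives and elastic fibre genes, 0 rose, 2 fell and 17 were not called, and the median log2 difference was 0.006. The calls were 10.5% of the list, against 6.41% of all probe sets. Below the median signal, where 18 of the 19 lay, 1.86% of probe sets were called, and nothing particular to the list is read from that. LTBP1, which holds latent TGF-beta in the matrix, read 8.37 and 8.03 in shDROSHA and 9.04 and 8.92 in shNC. It fell by 0.78 on the log2 scale (SE 0.107, limma adjusted p = 0.000668), and both knockdown arrays were below both controls. LOXL1, a lysyl oxidase-like enzyme that cross-links elastin together with fibulin-5, read 6.46 and 6.52 against 7.02 and 7.26. It fell by 0.66 (SE 0.14, limma adjusted p = 0.0118), with an adjusted p of 0.134 without shNC replicate 2. HMCN1, a giant member of the fibulin family, had a log2 difference of -0.74 (SE 0.239, limma adjusted p = 0.0883), with replicates of 4.63 and 5.47 in shDROSHA, and passed only without shDROSHA replicate 2 (log2 difference -1.16). LTBP2 had one of 0.36 (limma adjusted p = 0.23).

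Of 17 thrombospondin relatives and receptors, 2 rose and 1 fell (17.6% called, against 6.41% of all probe sets and 11.0% of those at or above the median signal, where 9 of the 17 lay), with a median of 0.02. The 2 that rose were the integrin chains ITGA3, which pairs with beta-1 as a laminin and thrombospondin-1 receptor, and ITGA6, of laminin receptors. ITGA3 read 9.33 and 9.23 in shDROSHA against 8.93 and 8.86 in shNC, and rose by 0.39 (SE 0.076, limma adjusted p = 0.00728). ITGA6 rose by 0.26 (limma adjusted p = 0.0283), with an adjusted p of up to 0.19 when single arrays were left out, failing without shDROSHA replicate 2, shNC replicate 1 or shNC replicate 2. CALR, an endoplasmic reticulum chaperone that also serves as a cell-surface partner of thrombospondin-1, fell by 0.24 (limma adjusted p = 0.0277), with a limma adjusted p of 0.16 without shDROSHA replicate 2, 0.0877 without shNC replicate 2 and 0.0663 with arrays centred on their medians. COMP, a cartilage thrombospondin, had a log2 difference of 0.39 (limma adjusted p = 0.22) and overlapping arrays, and passed only without shDROSHA replicate 1 (0.69). The CD47 receptor had one of 0.13 (limma adjusted p = 0.46).

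Other matricellular proteins, which like SPARC and thrombospondins modulate cells more than they build fibres, were measured for 10 genes. Of these 1 rose and 4 fell, the other 5 were not called, and the median was 0.03. The calls were 50% of the list, against 6.41% of all probe sets and 11.0% of those at or above the median signal, where 4 of the 10 lay, and nothing particular to the list is read from that. TNC, tenascin-C, read 5.81 and 5.57 in shDROSHA and 6.52 and 6.81 in shNC, with no overlap. It fell by 0.98 (SE 0.167, limma adjusted p = 0.00312), the largest of these changes in size. CCN3 fell by 0.49 (limma adjusted p = 0.0236), TGFBI, a TGF-beta-induced matrix protein, by 0.31 (0.0115) and CCN2, connective tissue growth factor, by 0.23 (0.0427), whereas CCN1, its close relative, rose by 0.23 (0.00872), all adjusted p-values from limma. The TNC call held with each array left out. CCN1 did not pass without shNC replicate 2, CCN3 and TGFBI without either shNC array, and CCN2 without shDROSHA replicate 1 or either shNC array or with arrays centred on their medians.

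Proteins of the ADAMTS and ADAMTSL families and their relatives, which carry the thrombospondin type 1 repeat, did not pass in either direction. Of 24 measured, 0 were called by the trended fit, against 6.41% of all probe sets and 1.86% of those below the median signal. In limma 0 had an unadjusted p under 0.05 in that fit and 4 in the constant fit. Over all 18603 probe sets 3599 and 2774 did. The median of the list was -0.05. The nearest were ADAMTSL3 (-0.36, limma adjusted p = 0.29), THSD1 (-0.35, 0.31), PAPLN (0.31, 0.41) and THSD7A (0.30, 0.42). As 23 of the 24 lay below the median signal, differences under the size needed at that level were not detectable. In the constant fit 0 genes of these 5 lists passed, with 3, 0, 4, 5 and 4 at an unadjusted p under 0.05 in the order given for fibulin, SPARC, thrombospondin, matricellular and ADAMTS relatives.

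**Figure D4:**
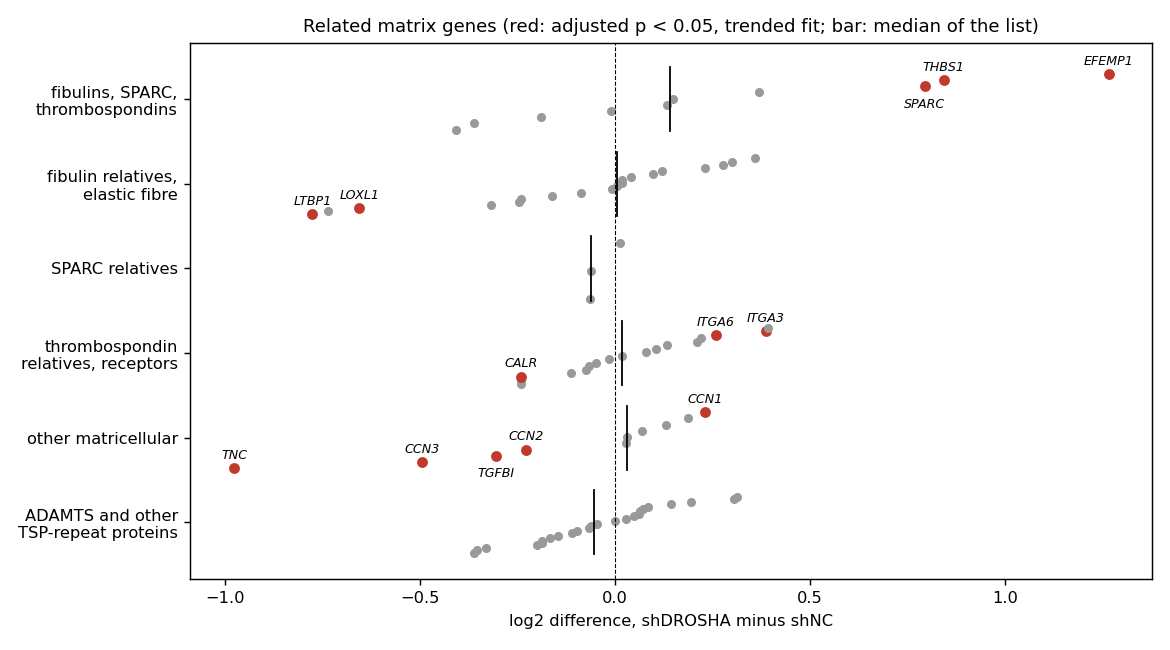
Log2 difference of shDROSHA minus shNC (horizontal axis) for the 10 genes and 5 lists of related matrix genes, 1 point per gene, in red and named where adjusted p is below 0.05 in the trended fit, with a bar at each list's median. EFEMP1, THBS1 and SPARC lie at the far right, TNC (-0.98) and LTBP1 (-0.78) at the far left, and the list medians between -0.06 and 0.14.

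SPARC and THBS1 are also abundant in fibroblasts, endothelium and platelets, so markers of other cells were read beside them. Of 5 fibroblast, 3 endothelial, 4 leukocyte and 4 platelet markers measured, 0 passed the trended fit of limma and 0 the constant fit. In that order 4, 3, 4 and 3 lay below the median signal, where the trended fit called 1.86% of probe sets. Nothing about such cells is therefore read from 0 calls. At an unadjusted p under 0.05 in the trended fit of limma there were 0, 0, 0 and 2, and 3599 of all 18603 probe sets. The summed fibroblast signal was 9.14 and 9.28 (log2) in shDROSHA and 9.20 and 9.11 in shNC, and that of endothelial markers was 8.07 and 8.05 against 8.01 and 8.02. The summed platelet signal was 8.31 and 8.38 against 8.32 and 8.21, and the leukocyte signal 8.29 and 8.31 against 8.20 and 8.29. The 2 platelet markers at an unadjusted p under 0.05, GP9 (-0.39) and PF4 (0.28), differed in opposite directions. Of the 6 mesenchymal markers of the line 1 rose and 2 fell, with a median of -0.04. Calls were 50% of the list, against 6.41% of all probe sets and 11.0% of those at or above the median signal, where all lay. AXL rose by 0.33, CAV1 fell by 0.23 and MSN by 0.22 (limma adjusted p = 0.00442, 0.0031 and 0.0133). Of the 5 luminal markers 0 rose and 1 fell (20.0%, against 6.41% of all probe sets), with a median of 0.05. KRT19 fell by 0.35 (limma adjusted p = 0.0144), and the log2 differences of the others were 0.16 for KRT18, 0.12 for ESR1, 0.05 for GATA3 and -0.10 for EPCAM. MSN and KRT19 did not pass without shNC replicate 2. The part of these markers in the differences of EFEMP1, SPARC and THBS1 was not tested.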

How the data were processed

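The authors deposited log2 signals, 1 per probe set and array, made with RMA per the submitters' processing notes, that is, background-corrected, quantile-normalized between arrays and summarised over probes. The sources used here give no software version, build or filter. RMA hides a change shared by most transcripts, and the number of arrays limits the precision. Groups come from the sample titles. The platform annotation names 15886 of 18603 probe sets (2717 have no symbol), updated through Entrez identifiers to RefSeq (GRCh38.p14). The fit used limma 3.58.1 in R 4.3.3 with a prior variance that follows signal level, on all probe sets of the 4 arrays, at a threshold of adjusted p 0.05. The residual SD was 0.213 in the dimmest of 5 level bins and 0.067 in the brightest, which is why the trend was used. The constant prior variance is the first alternative. Intervals are 95% intervals of the trended fit. The smallest exact two-sided p of 2 arrays against 2 is 0.333, so every p rests on spread pooled across probe sets. Scripts were tested on simulated data. Named were DROSHA, the 10 genes, up to 4 genes of each related list with the smallest p, and list genes that passed. Genes named outside that rule (CD47 and single markers of other cells) were chosen after their values were seen. The genes, lists and the choice of fit were settled with earlier results of these data known. Sequences are from RefSeq.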

Additional observations from a re-analysis of the deposited data

How the results depend on the processing

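Leaving aside the filter at the median signal, EFEMP1, SPARC and THBS1 each passed in 10 of the 11 alternatives run. The exception was the constant fit, where 0 of the 10 genes passed. Without probe sets below the median signal EFEMP1 and THBS1 also passed, in the trended fit and in the constant fit, the latter added after seeing the data. SPARC entered those fits only through its shDROSHA arrays (shNC mean 7.16, median of all probe sets 7.22), so its passes there are not counted. With 1 array left out, the differences were 1.14 to 1.39 for EFEMP1, 0.66 to 0.93 for SPARC and 0.74 to 0.95 for THBS1. FBLN1, not called in the main fit, passed as lower only without shDROSHA replicate 2 (log2 difference -0.57). With the replicate number as a block, 3 of the 10 and 1391 probe sets passed. Deviations of arrays with the same number correlated at -0.022, which gave no sign of pairing. Over all probe sets the count of 1192 became 1 in the constant fit, 542 in it without probe sets below the median signal, 1824 at adjusted p 0.10, and 535 to 1949 with 1 array left out (535 without shNC replicate 1, 748 without shNC replicate 2, 1949 without shDROSHA replicate 1). Among the 10 genes, differences that changed sign, none of them called, were those of EFEMP2 (-0.034 to 0.33 with 1 array left out, below 0 without shNC replicate 2), THBS2 (-0.041 to 0.31, below 0 without shNC replicate 2), FBLN5 (-0.016 to 0.76, below 0 without shNC replicate 1) and THBS3 (-0.047 to 0.026, above 0 without shDROSHA replicate 1 or shNC replicate 1). The THBS3 difference was 0.0065 with quantile normalization again and 0.023 with centred arrays. Of the related genes named, SPOCK2 (-0.26 to 0.14), SPOCK3 (-0.28 to 0.15) and SMOC1 (-0.086 to 0.11) also changed sign with 1 array left out, again without being called. A fit without 1 array leaves 1 array in a group, so its p-values and counts rest on the other group's replicates and on pooled spread. Such fits are among the 11 alternatives above. They describe dependence on single arrays and are not separate tests. The looser threshold acts by construction, and the cause of the other changes was not tested. Averaging a gene's probe sets was not run, as each of the 10 genes and DROSHA has 1.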
